A study of Mus musculus with 7 samples.

Results

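A set of 10 genes that build or restrain caveolae was followed: the caveolins Cav1 and Cav2, the cavins Cavin1, Cavin2 and Cavin3, the neck and membrane-bending proteins Ehd2, Dnm2 and Pacsin2, the diaphragm protein Plvap, and the lipid transporter Mfsd2a. They were chosen by name, and all 10 of 10 had a probe set carrying that symbol alone, among 22180 genes with such a probe set and 15582 tested. Each had exactly 1 such probe set, so no choice between probe sets entered the values. RNA came from vascular fragments of the brain of female C57BL/6N mice aged 12 weeks, given PDGF-CC (4 arrays) or phosphate-buffered saline (PBS, 3 arrays) into the cerebral ventricles 4 hours before sacrifice. The animals carried no transgene or deletion named in the labels, and the sample labels write the strain as C57BL/6. Whether a sample was 1 mouse or a pool is not stated in the labels, so the spread between arrays may be partly technical. Vascular fragments are short lengths of small vessel with endothelial cells, mural cells and adhering brain cells.

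Caveolae are flask-shaped pits of the plasma membrane that can carry proteins across the endothelium, a route called transcytosis. Caveolins form the membrane-embedded coat, cavins assemble over it from the cytosol, and EHD2, dynamin and pacsin proteins shape or hold the neck. In brain capillaries caveolae are few, and the lysophospholipid transporter MFSD2A keeps them so through the lipids it brings into the membrane, while arteriolar endothelium has many. PDGF-CC, a ligand of the receptor PDGFR-alpha that tissue plasminogen activator converts to its active form, is known for loosening the blood-brain barrier.

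No gene of the 10 passed the adjusted threshold for PDGF-CC against PBS. Cavin2 stood lowest against PBS, at 0.676-fold, and Mfsd2a highest, at 1.20-fold with wide error. The other 8 differed by less than 0.11 on the log2 scale in either direction. The limma fit called 0 of 10 members at an adjusted p under 0.05, against 0 of 17734 probe sets (0%). At an unadjusted p under 0.05 it gave 1 of 10 members, against 916 of 15582 tested genes (5.88%). The median difference was 0.01 over the members and -0.003 over all tested genes, and 7 of 10 members were positive, against 48.7% of all tested genes. All values are log2 signals of a probe set and all differences are PDGF-CC minus PBS on that scale. Signals of different genes are not compared, because probe sets differ in how brightly they respond.

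**Figure D1:**
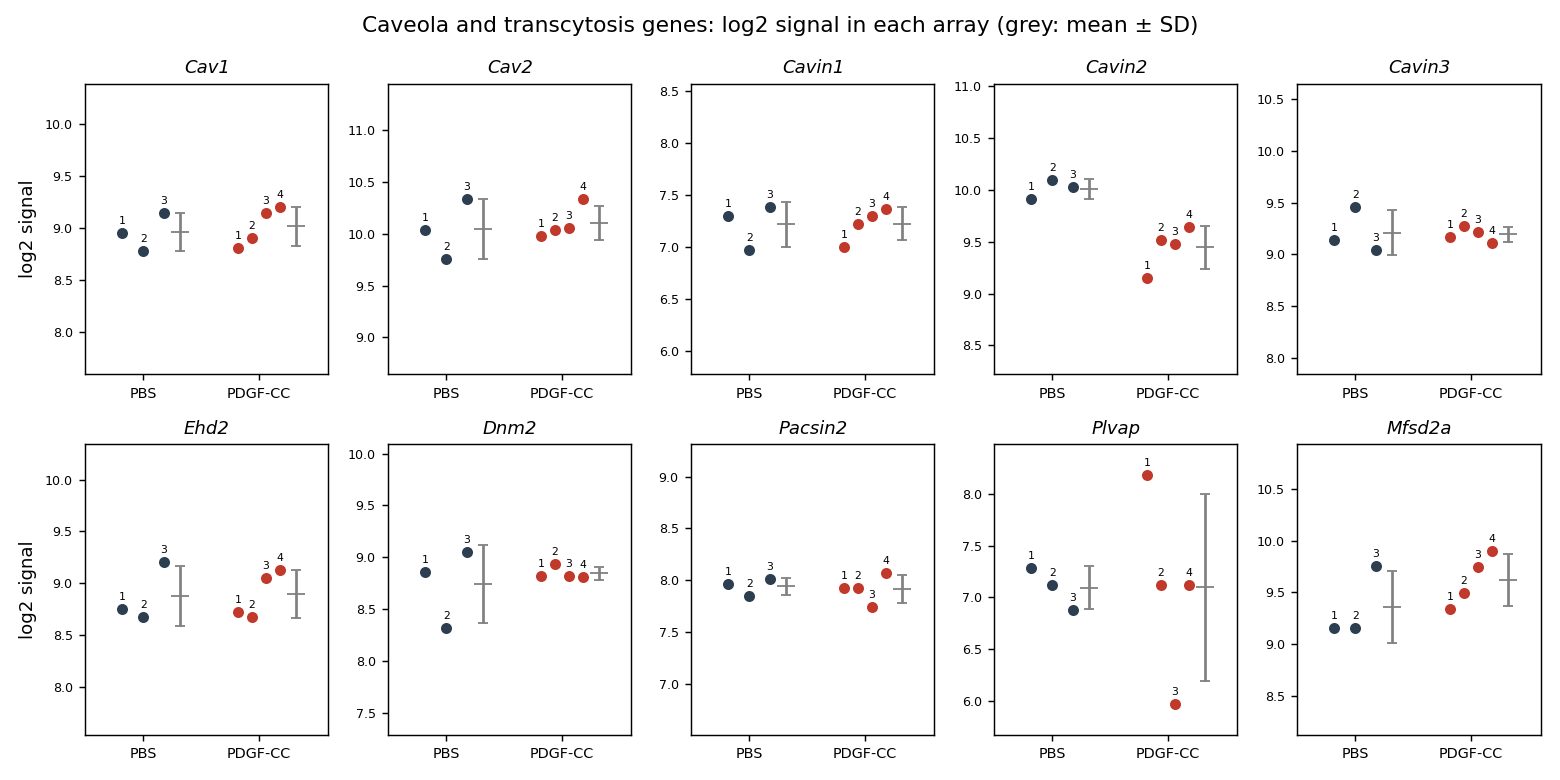
Log2 signal (vertical axis, the same span in every panel) of 10 genes in each of 3 PBS (dark) and 4 PDGF-CC (red) arrays, numbered by replicate, with the mean and SD in grey. The Cavin2 values of the 4 PDGF-CC arrays lie at 9.15 to 9.64, below the 3 PBS arrays at 9.91 to 10.10, while the groups overlap in the other 9 genes.

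The upstream sequences of Cavin2, Cav1 and Mfsd2a are shown because these 3 genes carry the patterns described next: Cavin2 the separation of the groups, Cav1 and Mfsd2a a split by sample number. Each run is the 250 bases before the annotated start in RefSeq's GRCm38.p6 table, 5′ to 3′ on the strand of the gene. Where a gene had several entries the most upstream was taken: Cav1 had 2, Cavin2 and Mfsd2a 1 each. Capitals mark CCAAT and GGGCGG on either strand (read as ATTGG and CCGCCC on the opposite one), and in these 3 runs no match overlaps another.
Cavin2 (chr1:51288876-51289125, plus strand): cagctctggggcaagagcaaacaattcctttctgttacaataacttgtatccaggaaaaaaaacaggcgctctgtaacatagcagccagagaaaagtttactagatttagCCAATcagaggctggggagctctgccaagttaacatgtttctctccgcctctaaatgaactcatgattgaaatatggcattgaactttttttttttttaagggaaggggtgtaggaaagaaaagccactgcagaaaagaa
Cav1 (chr6:17306085-17306334, plus strand): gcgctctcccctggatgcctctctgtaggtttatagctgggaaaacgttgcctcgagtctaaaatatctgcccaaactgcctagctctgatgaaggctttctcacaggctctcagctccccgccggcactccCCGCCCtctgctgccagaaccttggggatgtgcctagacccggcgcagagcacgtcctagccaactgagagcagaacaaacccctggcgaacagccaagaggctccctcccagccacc
Mfsd2a (chr4:122961189-122961438, minus strand): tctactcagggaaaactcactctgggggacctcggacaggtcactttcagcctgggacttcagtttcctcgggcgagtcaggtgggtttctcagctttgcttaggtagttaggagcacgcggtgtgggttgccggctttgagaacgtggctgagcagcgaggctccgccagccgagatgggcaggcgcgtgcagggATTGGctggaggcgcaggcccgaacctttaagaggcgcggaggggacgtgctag
The Cavin2 stretch had a GC content of 40.4% and 2 CpG pairs, against a median of 52.4% and 6 over all 32851 promoters of the table. It held CCAAT 140 bases before the start and no GGGCGG. The stretch before Cav1 had 59.6% GC, 10 CpG pairs and GGGCGG at 118 bases, and that before Mfsd2a 61.6% GC, 17 CpG pairs and CCAAT at 54 bases. Among the 8 members with an entry in the table (all but Cavin3 and Plvap), Cavin2 had the lowest GC content, the others lying between 51.2% and 67.6%. Cavin1 (2 entries) and Pacsin2 (3 entries) were also read at the most upstream one. Further entries of these genes and of Cav1 were not compared. Of all promoters in the table, 33.9% held CCAAT and 32.7% GGGCGG, so a match is a description of the letters and not of a bound site.

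Among the cavins, Cavin2 was the gene whose groups did not overlap. Cavin-2, also called serum deprivation response protein, binds phosphatidylserine, bends caveolar membrane into tubules and is needed for caveolae in some endothelia. Its signal was 9.15, 9.52, 9.48 and 9.64 in PDGF-CC arrays 1 to 4 and 9.91, 10.10 and 10.03 in PBS arrays 1 to 3. Every PDGF-CC array lay below every PBS array, with PDGF-CC array 1 lowest. Such a separation was seen in 1 of 10 members, against 2.37% of all tested genes, and the opposite separation in 0 of 10, against 1.81%. The difference was -0.56 ± 0.12 (SE, n = 4 and 3), a ratio of 0.676 with a 95% interval from 0.557 to 0.822 before any allowance for the number of genes. By limma its unadjusted p was 0.00205, rank 47 of 17734 probe sets, and its adjusted p 0.722. It therefore does not pass once all probe sets are considered, and the adjusted p ran from 0.358 to 0.847 over the alternatives.

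The sample descriptions carry numbers from 1 to 7, which the labels do not explain. PDGF-CC arrays 1 and 2 had numbers 1 and 2, PBS arrays 1 and 2 numbers 3 and 4, PDGF-CC arrays 3 and 4 numbers 5 and 6, and PBS array 3 number 7. Within numbers 1 to 4 the Cavin2 difference was -0.67, and within 5 to 7 it was -0.47. Relative to the mean of 19 brain endothelium markers in each array it was -0.52. Levels of markers of other cell types stand beside this value. Markers of choroid plexus epithelium had 7 of 8 measured members negative, with list means of 6.32 to 7.16 in PDGF-CC and 7.23 to 7.58 in PBS arrays, which did not overlap. The defining marker Ttr was at a mean log2 signal of 12.6 in PDGF-CC and 12.9 in PBS. Pericyte markers had 10 of 12 members negative, with list means of 8.38 to 8.85 against 8.65 to 8.93, which overlapped. Microglia markers had 9 of 10 measured members positive, with list means of 9.66 to 9.74 in PDGF-CC and 9.16 to 9.61 in PBS arrays, which did not overlap. Their part in the Cavin2 value was not tested. In bulk RNA, fewer cells of a type cannot be told apart from less transcript in each cell.

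Cavin1 and Cavin3 lay close to equality. Cavin-1 is the cavin without which caveolae do not form. Its signal was 6.998, 7.22, 7.30 and 7.37 after PDGF-CC and 7.30, 6.97 and 7.38 after PBS. The lowest arrays were thus 1 of each group, and the difference was 0.01 ± 0.13 (adjusted p = 0.992 by limma). Cavin-3, which binds protein kinase C delta, was at 9.17, 9.28, 9.22 and 9.11 after PDGF-CC and at 9.14, 9.45 and 9.04 after PBS. The PBS arrays spread over 0.42 and enclosed all 4 PDGF-CC arrays, with a difference of -0.02 ± 0.10 (adjusted p = 0.971). The 95% interval of the ratio was 0.816 to 1.24 for Cavin1 and 0.833 to 1.17 for Cavin3. The interval of Cavin2 ended below that of Cavin3 and met that of Cavin1 only between 0.816 and 0.822. The difference between cavins was not tested.

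**Figure D2:**
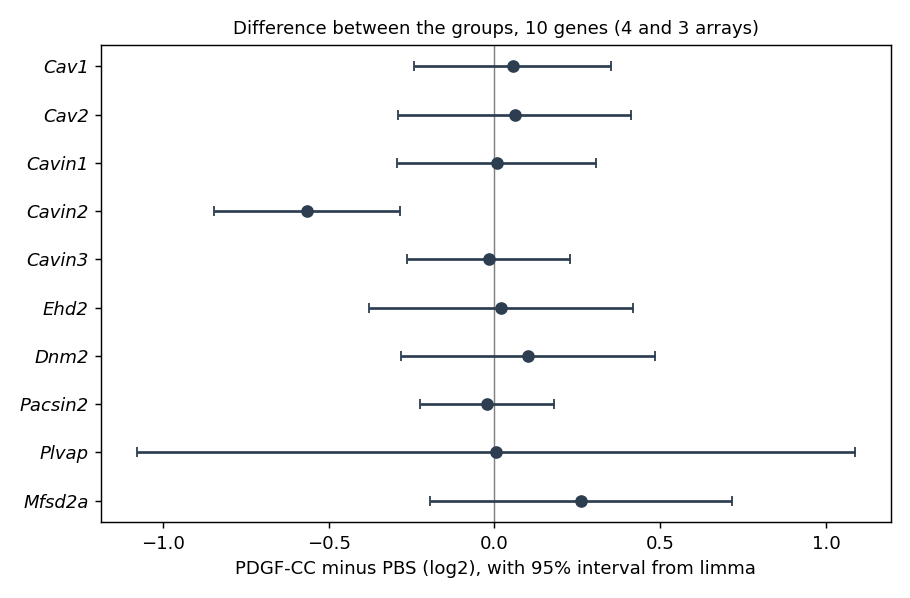
Difference in log2 signal between PDGF-CC (4 arrays) and PBS (3 arrays) for 10 genes, as points with their 95% intervals from limma, unadjusted for the number of genes. The interval of Cavin2 (-0.84 to -0.28) is the one that leaves out 0, and that of Plvap (-1.08 to 1.09) is the widest.

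The caveolins showed no difference beyond the spread between arrays. Caveolin-1, the coat protein that endothelial caveolae require, gave 8.81, 8.91, 9.14 and 9.20 after PDGF-CC and 8.96, 8.78 and 9.14 after PBS. Its difference was 0.06 ± 0.13 (adjusted p = 0.922 by limma), and the 95% interval of the ratio ran from 0.846 to 1.28. Caveolin-2, which forms mixed oligomers with caveolin-1, gave 9.98, 10.04, 10.06 and 10.34 after PDGF-CC and 10.04, 9.75 and 10.33 after PBS. Its difference was 0.06 ± 0.15 (adjusted p = 0.928). In both genes the PBS arrays reached nearly as high and further down than the PDGF-CC arrays. Cav1 arrays fell into higher and lower values by sample number instead, as shown further on.

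Genes of the caveolar neck and of membrane bending gave no difference beyond the spread. Ehd2 encodes an ATPase that assembles around the neck and keeps caveolae at the cell surface. Its signal was 8.72, 8.68, 9.05 and 9.13 after PDGF-CC and 8.75, 8.67 and 9.21 after PBS. The groups covered nearly the same range, with a difference of 0.02 ± 0.17 (adjusted p = 0.981 by limma). Dnm2 encodes the dynamin that pinches vesicles off the membrane in many cell types. Its signal was 8.82, 8.94, 8.82 and 8.81 after PDGF-CC and 8.85, 8.32 and 9.05 after PBS. The PDGF-CC arrays lay within a range of 0.13, the PBS arrays over 0.73, and the difference was 0.10 ± 0.16 (adjusted p = 0.879). Without PBS array 2, the low one, it was -0.11, and without PBS array 3, the high one, 0.26. Pacsin2, whose F-BAR domain protein helps to curve the caveolar membrane, gave 7.93, 7.93, 7.75 and 8.07 after PDGF-CC and 7.97, 7.85 and 8.01 after PBS, a difference of -0.02 ± 0.09 (adjusted p = 0.952). Its 95% interval for the ratio was 0.856 to 1.13.

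Plvap differed between arrays more than between groups. PLVAP forms the diaphragms of caveolae and fenestrae, and in the brain it marks vessels without a tight barrier, such as those of the choroid plexus. Its signal was 8.18, 7.12, 5.97 and 7.12 in PDGF-CC arrays 1 to 4 and 7.28, 7.12 and 6.88 in the PBS arrays. PDGF-CC array 1 was highest and PDGF-CC array 3 lowest of all 7, a range of 2.21, against 0.41 over the PBS arrays. The residual SD exceeded that of 99.6% of tested genes. The difference was 0.004 ± 0.46 (adjusted p = 1 by limma), and the 95% interval of the ratio was 0.474 to 2.12. Ratios anywhere in that interval remain possible here, before any allowance for the number of genes. The difference was -0.36 without PDGF-CC array 1 and 0.38 without PDGF-CC array 3. Esm1, from the list of fenestrated endothelium markers, followed the same extremes with 8.32 in PDGF-CC array 1 and 7.26 in PDGF-CC array 3, against 7.63 to 7.89 in PBS. Igfbp3 of that list did so too, at 10.87 and 10.15, against 10.37 to 10.83 in PBS. Plpp3, Plpp1, Cd24a and Nrp1 did not peak in PDGF-CC array 1. They stood there at 8.59, 9.02, 10.89 and 9.53, with PBS highs of 8.62, 9.13, 11.34 and 9.77. Plpp3, Plpp1 and Cd24a were lowest in PDGF-CC array 3, but Nrp1 in PDGF-CC array 2. The mean of that list was 9.34 in PDGF-CC array 1 and 8.46 in PDGF-CC array 3, against 8.99 to 9.20 in PBS. Plvap is itself part of that mean and widens its range, so it is not a separate measure. A mean without Plvap was not computed. Choroid plexus markers were lowest in PDGF-CC array 3, at 6.32. In PDGF-CC array 1, where Plvap was highest, the choroid plexus mean was 6.83, below every PBS array. The part of these cells in the Plvap values was not tested.

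Mfsd2a had the largest positive difference of the members and did not pass. MFSD2A carries lysophosphatidylcholine with docosahexaenoic acid into the brain and holds caveolar transcytosis down. Its signal was 9.34, 9.49, 9.74 and 9.90 after PDGF-CC and 9.16, 9.16 and 9.76 after PBS. PBS array 3 lay among the PDGF-CC arrays, so the groups overlapped. The difference was 0.26 ± 0.19 (adjusted p = 0.774 by limma), and the 95% interval of the ratio ran from 0.875 to 1.64. It was 0.46 without PBS array 3, and 0.16 without PBS array 1 and again without PBS array 2. With numbers 1 to 4 against 5 to 7 as a block it was 0.18, with the number as a covariate 0.41 (adjusted p = 0.536). Within numbers 1 to 4 it was 0.26, where both PDGF-CC arrays lay above both PBS arrays, and within 5 to 7 it was 0.06, where PBS array 3 lay between the PDGF-CC arrays. Relative to the endothelium markers it was 0.31 (adjusted p = 0.841).

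Several of these genes varied together across arrays, with a split by sample number. Cav1, Cav2, Ehd2 and Mfsd2a were higher in every array of numbers 5 to 7 than in every array of numbers 1 to 4. That made 4 of 10 members, against 3.5% of all tested genes, and the reverse order held for 0 of 10, against 1.98%. This was a split looked at after the values were seen and given here with no test. For Mfsd2a the arrays of 5 to 7 lay at 9.74 to 9.90 and those of 1 to 4 at 9.16 to 9.49, a difference in means of 0.51. For Ehd2 they lay at 9.05 to 9.21 and 8.67 to 8.75, a difference of 0.42. Cav1 lay at 9.14 to 9.20 against 8.78 to 8.96, a difference of 0.30, and Cav2 at 10.06 to 10.34 against 9.75 to 10.04, a difference of 0.29. Cavin1 had a tie at 7.30 between the parts and otherwise the same order, with a difference of 0.23. Cavin2 had no such split (0.05), and Cavin3 (-0.14) and Plvap (-0.77) were lower on average in numbers 5 to 7. The numbers 5 to 7 include both treatments, with 2 PDGF-CC arrays and 1 PBS array.

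**Figure D3:**
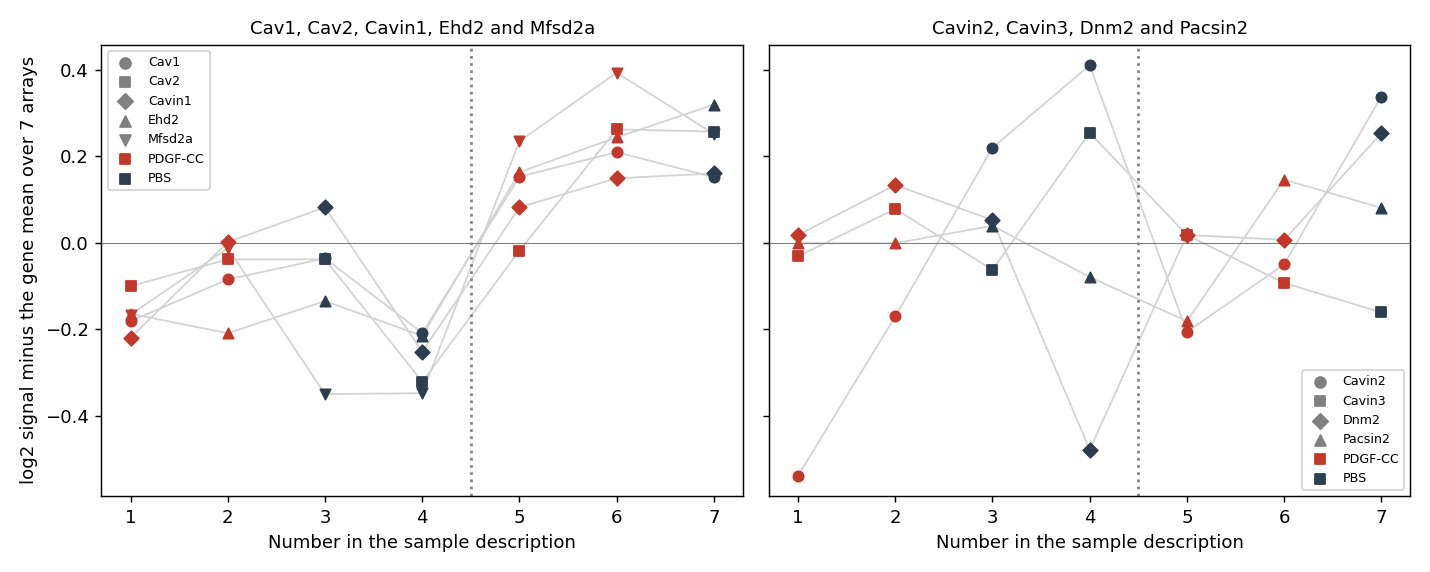
Log2 signal minus each gene's mean over 7 arrays (vertical axis) by the number in the sample description (horizontal axis), with PDGF-CC arrays in red and PBS arrays in dark and the parts 1 to 4 and 5 to 7 divided by a dotted line; Plvap, with its wider range, is left out. Cav1, Cav2, Ehd2 and Mfsd2a lie higher at numbers 5 to 7 than at 1 to 4 in both treatments, while Cavin2 is low in the PDGF-CC arrays on either side of the line.

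Several vessel cell marker lists, and some of the related lists described further on, differed along the same numbers. The list means of capillary markers (which include Mfsd2a) were higher by 0.22 in numbers 5 to 7, those of arterial markers by 0.23 and those of smooth muscle markers by 0.23, with no overlap between the parts. Brain endothelium markers were at 0.11, pericyte markers at 0.26 and fenestrated endothelium markers, among them Plvap, at -0.36, and in each of these lists the parts overlapped. Venous markers were at -0.01, with list means of 9.50 to 9.68 in numbers 5 to 7 and 9.50 to 9.74 in numbers 1 to 4. Lists of clathrin coat and adaptor genes (0.08), receptors carried across endothelium (0.11) and vesicle traffic genes (0.11) were also higher in numbers 5 to 7. Their list means did not overlap between the parts. Those of raft and caveola partners (0.05) and of other members of the same families (-0.03) overlapped. Relative to the endothelium markers, Cav1, Ehd2 and Mfsd2a were still higher in every array of 5 to 7 than in every array of 1 to 4, by 0.19, 0.32 and 0.41, while Cav2 overlapped, at 0.18. Plvap was lower on that scale in every array of 5 to 7 than in every array of 1 to 4, by a difference of -0.88. Without the rescaling its parts met at 7.12, a value shared by PDGF-CC arrays 2 and 4 and PBS array 2. On the rescaled values 3 of 10 members were thus higher, against 0.507% of all tested genes, and 1 of 10 lower, against 10.3%. The endothelium mean was itself 0.11 higher in numbers 5 to 7, so subtracting it lowers every gene there. Without the rescaling the shares of all tested genes were 3.5% higher and 1.98% lower. The part of smooth muscle and pericytes, which also have caveolae, was not tested.

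The likeness of the members was measured as the root mean square difference between their log2 values over the 7 arrays, each gene centred on its own mean. Of the 45 pairs of members, the closest were Cav1 with Cavin1 (0.069), Cav1 with Ehd2 (0.089) and Cav1 with Cav2 (0.096). Over all tested genes, Cav1 was nearest to Cpd (0.053), Trim16 (0.054) and Mapre2 (0.054), where the median gene stood at 0.186. Mfsd2a was nearest to Alas1 (0.088), Adh1 (0.094) and Myl9 (0.099), against a median of 0.292. Plvap was nearest to Igfbp5 (0.143), Bex2 (0.176) and Mia (0.256), against a median of 0.617. Cavin2, added to this search after its values were seen, was nearest to Bcl2l1 (0.081), Aqp11 (0.094) and Rnf103 (0.094), against a median of 0.331. Those neighbours of Cavin2 had differences of -0.57, -0.49 and -0.63, with adjusted p between 0.531 and 0.722 by limma. With 7 arrays and 15582 genes, close profiles are easily found, and nothing follows from them about function.

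Among relatives of the members, 2 of 9 measured genes were positive, with a median of -0.02 and 0 called. Ehd3, an EHD protein of endosomes, had the smallest p, at -0.20 ± 0.08 (adjusted p = 0.769 by limma), with 7.24 to 7.39 after PDGF-CC and 7.39 to 7.61 after PBS. Ehd1 was at -0.05 ± 0.12 and Ehd4 at 0.13 ± 0.08. Cav3, the caveolin of muscle, had a mean signal of 4.51 in each group, little above the filter at 4.14, and a difference of -0.01 ± 0.10.

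Raft and caveola partners showed small positive values in 8 of 9 genes, with a median of 0.06 and 0 called. Nos3, the endothelial nitric oxide synthase that caveolin-1 binds and restrains, was at 0.10 ± 0.09. Flot1 and Flot2, which encode flotillins of non-caveolar rafts, were at 0.06 ± 0.06 and 0.002 ± 0.05. Kdr, the main VEGF receptor of endothelium, was at 0.07 ± 0.09, and Src, whose kinase phosphorylates caveolin-1, at 0.10 ± 0.06, with the smallest p of the list (adjusted p = 0.770 by limma).

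Receptors that endothelium carries across were positive in 6 of 11 measured genes, with a median of 0.01 and 0 called. Tfrc, the transferrin receptor taken up by clathrin-coated pits, had 9.88, 9.88, 10.41 and 10.16 after PDGF-CC and 9.52, 9.04 and 9.79 after PBS. Its groups did not overlap, and its difference of 0.63 ± 0.20 had an adjusted p of 0.769 by limma. Every PDGF-CC array lay above every PBS array in 1 of these 11 genes, against 1.81% of all tested genes. Lrp1, a scavenger and clearance receptor, was at 0.16 ± 0.12, and the insulin receptor gene Insr at -0.12 ± 0.06. Acvrl1 and Scarb1, whose receptors have a part in lipoprotein uptake by endothelium among other roles, were at 0.01 ± 0.04 and 0.04 ± 0.09.

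Of 14 measured clathrin coat and adaptor genes 5 were positive, with a median of -0.01 and 0 called. Cltc, the clathrin heavy chain, was at 0.005 ± 0.08, the cargo adaptor gene Dab2 at 0.06 ± 0.09 and Ap2s1, of the AP-2 adaptor, at -0.09 ± 0.08 with the smallest p (adjusted p = 0.802 by limma). Picalm was not analysed here. Of 15 genes for vesicle traffic and fusion 7 were positive, with a median of -0.02 and 0 called. Stx4a, a target-membrane SNARE of the cell surface, was at 0.17 ± 0.07 and did not overlap between the groups (9.22 to 9.41 against 9.02 to 9.19, adjusted p = 0.769 by limma). Such a separation, with PDGF-CC above PBS, held for 1 of these 15 genes, against 1.81% of all tested genes. Rab5a of early endosomes was at 0.005 ± 0.11, Rab11a of recycling endosomes at 0.08 ± 0.07 and the vesicle SNARE gene Vamp3 at -0.10 ± 0.19.

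**Figure D4:**
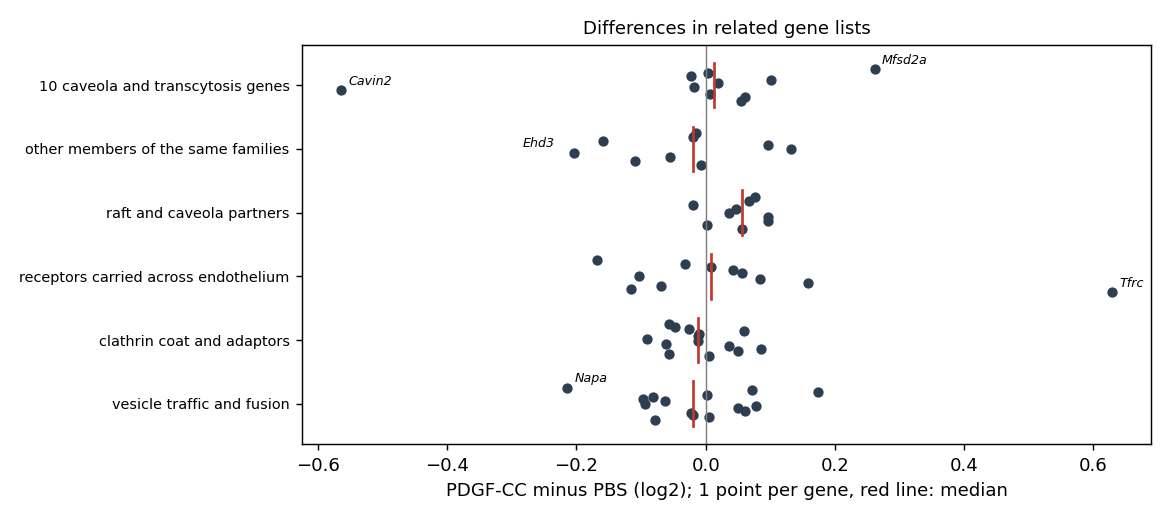
Difference in log2 signal between PDGF-CC and PBS (horizontal axis) for each measured gene of 6 lists, with the median of each list as a red line and names at differences beyond 0.2 in size. The medians lie between -0.02 and 0.06, with Cavin2 at -0.56 and Tfrc at 0.63 as the farthest points.

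Endothelial markers were well above the filter of 4.14, with list means at 10.51 to 10.63 in PDGF-CC and 10.50 to 10.72 in PBS arrays. Of their differences, 6 of 19 were positive. List means and medians cover only the genes that passed the filter, so means above it were nearly fixed in advance for any list. Oligodendrocyte markers were thus above it too (5.05 to 5.46). Passing the filter therefore does not check the vascular label. By median difference, capillary markers were at 0.09, venous at -0.08, arterial at -0.02 and fenestrated at -0.19. Smooth muscle was at 0.14, pericytes at -0.15, perivascular fibroblasts at -0.09 and choroid plexus epithelium at -0.71. Microglia were at 0.25, astrocytes at -0.01, neurons at 0.05 and oligodendrocytes at 0.13. The neuron markers Tubb3 (0.49) and Nefl (0.34) fell below the filter and are not in that median. Array medians of the log2 values ran from 4.87 to 4.95, and 5 of the 10 members had exactly the same value in at least 2 arrays, the origin of which was not tested.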

How the data were processed

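Gene expression was measured on 1 microarray per sample from 10 ng of total RNA, per the labels' protocols. The authors deposited log2 values, 1 per probe set, whose scale was read from their range (1.54 to 13.0). The submitters' processing notes list the tools Affymetrix Expression Console, RMA and limma, with neither version nor role. RMA makes the distributions of arrays alike, so an overall change in RNA would not show. The genome build behind the probe sets is not given in the sources used here.

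Probe sets were named by the platform annotation: of 33793, 23521 had 1 symbol, 1814 several and 8458 none. The 17734 probe sets that had a symbol and averaged above 4.14, the 30th percentile of named probe sets, were tested. The groups were compared with limma 3.58.1 (lmFit, then eBayes; R 4.3.3), 2-sided, without covariates, with Benjamini-Hochberg adjustment at 0.05. The fit was tested on simulated data. Each gene entered lists and medians with its brightest probe set. Genes whose brightest probe set fell below the filter were left out of list means and medians. Of 191 list entries, 186 had a probe set.

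The members and lists were chosen with earlier results of these data known. The rule for named genes took all members, 18 relatives fixed by name, the smallest p of each related list and, for Cav1, Mfsd2a and Plvap, the 3 nearest profiles. Arrays give no read depth, and precision is limited by how many there were. Title replicate numbers were checked for pairing: deviations of same-numbered arrays from their group means correlated at 0.163, 0.107 and 0.0844, so not every pair passed 0.1. As alternatives the filter, normalization, prior, covariates and each array in turn were varied. Figures used matplotlib 3.10.9.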

Additional observations from a re-analysis of the deposited data

Results flagged for a closer look

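Dnm2 in PDGF-CC array 2 stood apart from its group. Its signal of 8.94 lay above the next array at 8.82, and this gap made up 0.91 of the range of the 4 PDGF-CC arrays, past the 95% limit of Dixon's test for a group of 4. The whole range was 0.13, narrower than the 0.73 of the PBS arrays. For values without ties, chance passes this limit in about 1 of 20 groups, with 10 genes looked at. Here PDGF-CC arrays 1 and 3 had exactly the same value, so that rate need not hold. PBS groups of 3 arrays were not examined in this way.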

How the results depend on the processing

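No member was called under any of the 17 alternatives. The member median, 0.01 in the main fit, ran from -0.08 without PBS array 2 to 0.12 without PBS array 3. Its sign was therefore not stable. Each move was smaller than the spread between arrays, a pooled within-group SD of 0.16 for the members' median level. That spread is wide beside the medians, so staying within it is a weak check. Cavin2 kept its sign throughout, from -0.63 with PDGF-CC array 4 left out to -0.47 with array 1 of that group left out, and at -0.49 with array weights. Mfsd2a kept its sign too, from 0.16 to 0.46 with arrays left out. The number of probe sets called rose from 0 to 3 when the filter was set at the 50th percentile, with arrays centred on their median and with the trended and robust prior. It was 2 relative to the endothelium markers, 1 with quantile normalization repeated, and 0 to 1 with arrays left out. The cause was not tested.

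The other 8 members lay near 0 and changed sign in places. With the replicate block the values were -0.0066 for Cav1, -0.018 for Cav2, -0.042 for Cavin1, 0.011 for Cavin3, -0.060 for Ehd2 and -0.0037 for Plvap, and 0 probe sets were called. The block leaves PDGF-CC array 4 alone in its own level, and the numbers did not pair the samples. Blocking on numbers 1 to 4 against 5 to 7 put Cavin1 at -0.032, Cavin3 at 0.0058 and Ehd2 at -0.053. With repeated quantile normalization Cavin3 was at 0.0075 and Pacsin2 at 0.00041, relative to endothelium markers at 0.028 and 0.023. With array weights Cavin3 was at 0.0089 and Plvap at -0.21, and with description number as a covariate Plvap was at -0.23. Leaving out each array gave ranges of -0.033 to 0.15 for Cav1, -0.083 to 0.21 for Cav2, -0.12 to 0.088 for Cavin1, -0.10 to 0.10 for Cavin3, -0.084 to 0.18 for Ehd2, -0.11 to 0.26 for Dnm2, -0.075 to 0.035 for Pacsin2 and -0.36 to 0.38 for Plvap. In 6 of these ranges 1 end came without PBS array 2 and the other without PBS array 3. Other probe sets of a member were not run as an alternative, since each member had 1. The values within numbers 1 to 4 and 5 to 7 were added after seeing the data.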
